A study of Mus musculus with 6 samples.

Results

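The 6 Iroquois homeobox genes, *Irx1* to *Irx6*, were followed through the chromatin accessibility maps of mouse neural stem/progenitor cells (NSPCs) with and without the *Sox2* enhancer cluster SRR2–18. An accessible region was assigned to an *Irx* gene when that gene had the nearest protein-coding transcription start site (TSS) to the strongest summit of the region, at a distance of at most 50 kb. This rule gave 41 regions of 190365 in both maps together. Of these, 20 were among the 82885 regions of the parent NSPCs and 21 among the 107480 regions of the ΔSRR2–18 NSPCs.

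Accessibility was measured by ATAC-seq, in which a transposase inserts adapters into open DNA. NSPCs were made from F1 hybrid ESCs (labelled 129S1/Cast F1 Hybrid) and grown on poly-d-lysine and laminin in N2B27 with EGF and bFGF. Both lines carry an mCherry tag at *Sox2* on the *M. musculus* allele. The parent line, Clone 5B, has no deletion, and the ΔSRR2–18 line, Clone 47D, lacks the enhancer cluster on both alleles. Each was profiled in 3 cultures of 30000 cells according to the labels, at 50 to 60 M reads a culture. The ΔSRR2–18 line is a single clone, so the deletion and the clone cannot be told apart. The authors called peaks per genotype over all cultures, so each genotype gives 1 list of regions and 1 value per region. The values therefore carry no error between cultures, and every comparison of the genotypes below is a description without a test.

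Iroquois proteins are transcription factors of the TALE homeodomain class, which also holds the Meis, Pbx and Tgif proteins. Mammalian *Irx* genes lie in a pair of clusters with long gene-poor stretches between the members, which hold many conserved enhancers. In the neural plate and neural tube *Irx* genes take part in setting regional borders: Irx3 marks territory caudal to the Six3 domain in the forebrain and is cross-repressive with Olig2 in the ventral spinal cord.

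In mm10, one cluster lies on chromosome 13 and holds *Irx1* (ENSMUSG00000060969.9, 71957921–71963723, minus strand), *Irx2* (ENSMUSG00000001504.10, 72628820–72634198, plus strand) and *Irx4* (ENSMUSG00000021604.15, 73260479–73269608, plus strand). The other lies on chromosome 8 and holds *Irx3* (ENSMUSG00000031734.13, 91798525–91802067, minus strand), *Irx5* (ENSMUSG00000031737.11, 92357625–92376286, plus strand) and *Irx6* (ENSMUSG00000031738.14, 92674288–92680956, plus strand). Start sites of neighbours were 665 kb (*Irx1* and *Irx2*), 632 kb (*Irx2* and *Irx4*), 556 kb (*Irx3* and *Irx5*) and 317 kb (*Irx5* and *Irx6*) apart.

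The *Irx* promoters of highest (*Irx2*) and lowest (*Irx1*) −log10 p in the parent list are shown first, as 201 bases of mm10 centred on the parent summit. Here and in the other sequences shown, the forward strand of the chromosome is printed, and capitals mark matches to any of the motifs named with the motif counts. Neither promoter window held a match, and both were rich in G, C and CpG dinucleotides, with 77.6% GC and 20 CpG at *Irx1* and 71.6% GC and 13 CpG at *Irx2*.
Irx1 promoter, chr13:71963764-71963964: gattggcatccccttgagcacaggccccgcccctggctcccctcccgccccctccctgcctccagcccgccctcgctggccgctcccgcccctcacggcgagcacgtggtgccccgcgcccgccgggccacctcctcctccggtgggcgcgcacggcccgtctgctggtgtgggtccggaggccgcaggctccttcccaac
Irx2 promoter, chr13:72628491-72628691: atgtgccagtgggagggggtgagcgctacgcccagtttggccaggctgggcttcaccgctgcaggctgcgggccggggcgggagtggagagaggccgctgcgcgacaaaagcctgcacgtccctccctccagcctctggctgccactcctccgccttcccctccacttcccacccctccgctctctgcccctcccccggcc

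The regions found in only 1 genotype and of highest fold enrichment are shown next. A position before the TSS in the direction of the gene is negative and a position after it is positive. The 3 strongest parent-only regions were all in the chromosome 8 cluster. None of them held an AP-1 match, and the *Irx3* +36.3 kb region held a SOX match at −46 from its summit.
Irx5 −25.6 kb, parent only, chr8:92331925-92332125: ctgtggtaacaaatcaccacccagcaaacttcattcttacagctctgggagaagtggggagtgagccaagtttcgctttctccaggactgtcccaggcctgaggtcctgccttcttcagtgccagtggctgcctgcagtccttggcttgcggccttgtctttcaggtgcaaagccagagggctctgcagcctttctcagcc
Irx3 +36.3 kb, parent only, chr8:91765506-91765706: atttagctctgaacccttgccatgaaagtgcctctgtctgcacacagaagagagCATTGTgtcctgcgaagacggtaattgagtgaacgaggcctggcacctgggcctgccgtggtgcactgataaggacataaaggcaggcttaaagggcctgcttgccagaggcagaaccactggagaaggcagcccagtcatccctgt
Irx3 +7.85 kb, parent only, chr8:91793961-91794161: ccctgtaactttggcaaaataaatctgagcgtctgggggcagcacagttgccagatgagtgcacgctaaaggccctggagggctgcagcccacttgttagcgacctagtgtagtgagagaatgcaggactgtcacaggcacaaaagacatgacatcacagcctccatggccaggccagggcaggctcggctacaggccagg
The strongest regions found only in ΔSRR2–18 NSPCs came from both clusters.
Irx6 +31.7 kb, ΔSRR2–18 only, chr8:92706429-92706629: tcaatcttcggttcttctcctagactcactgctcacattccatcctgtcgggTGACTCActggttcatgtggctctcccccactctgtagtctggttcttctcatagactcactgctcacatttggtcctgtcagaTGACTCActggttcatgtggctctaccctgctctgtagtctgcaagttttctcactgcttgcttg
Irx3 +21.0 kb, ΔSRR2–18 only, chr8:91780778-91780978: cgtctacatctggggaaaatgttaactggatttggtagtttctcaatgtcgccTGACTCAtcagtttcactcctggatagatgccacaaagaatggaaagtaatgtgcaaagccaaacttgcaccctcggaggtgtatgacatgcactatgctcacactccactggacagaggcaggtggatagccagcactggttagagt
Irx2 +11.0 kb, ΔSRR2–18 only, chr13:72639675-72639875: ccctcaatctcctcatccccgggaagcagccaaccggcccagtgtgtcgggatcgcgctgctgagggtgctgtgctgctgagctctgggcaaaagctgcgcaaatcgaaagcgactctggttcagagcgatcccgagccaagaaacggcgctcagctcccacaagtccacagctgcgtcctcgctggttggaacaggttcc
Irx5 −21.6 kb, ΔSRR2–18 only, chr8:92335930-92336130: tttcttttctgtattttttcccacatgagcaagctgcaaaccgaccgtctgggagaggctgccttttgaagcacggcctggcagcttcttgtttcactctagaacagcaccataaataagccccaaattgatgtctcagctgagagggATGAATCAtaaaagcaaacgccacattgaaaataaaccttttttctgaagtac
The *Irx6* +31.7 kb region held 2 AP-1 matches, at −48 and 36 relative to the summit, and they sit in a tandem repeat in the reference. The repeat unit was 84 bases long, and 75 of its bases (89.3%) were identical between the 2 copies. The *Irx3* +21.0 kb region held 1 AP-1 match at −47. In the *Irx5* −21.6 kb region an AP-1 match lay inside a HOX-PBX match. The *Irx2* +11.0 kb region held no match.

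By its background, the parent list was deeper than the ΔSRR2–18 list, although the labels give 50 to 60 M reads a culture for both lines. The lowest local background, taken here as a measure of depth, was 38.8 reads in the parent list. This was 1.98 times the 19.7 reads of the ΔSRR2–18 list. The parent list nevertheless held fewer and wider regions, with a median width of 685 bp against 586 bp. As a check of the labels, 5 regions lay over 2 kb downstream of the *Sox2* TSS in the parent list and 0 in the ΔSRR2–18 list. All 8 NSPC genes examined (*Sox1*, *Sox2*, *Nes*, *Pax6*, *Fabp7*, *Vim*, *Msi1* and *Hes5*) had a promoter region in both lists, and the pluripotency genes *Pou5f1* and *Nanog* had 0 of 2 in both.

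The clusters differed in how many regions each genotype had, and on chromosome 13 this changed with the setting, as given further below. On chromosome 13 the parent list held 2 regions and the ΔSRR2–18 list 6. *Irx1* had 1 parent region and 3 ΔSRR2–18 regions, *Irx2* had 1 and 3, and *Irx4*, known for its part in the ventricles of the heart, had 0 and 0. On chromosome 8 the parent list held 18 regions and the ΔSRR2–18 list 15. *Irx3* had 4 and 5 regions, *Irx5* had 5 and 5, and *Irx6*, a gene of retinal bipolar cells, had 9 and 5. The *Irx* regions covered 17681 bp in the parent list and 15917 bp in the ΔSRR2–18 list.

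**Figure D1:**
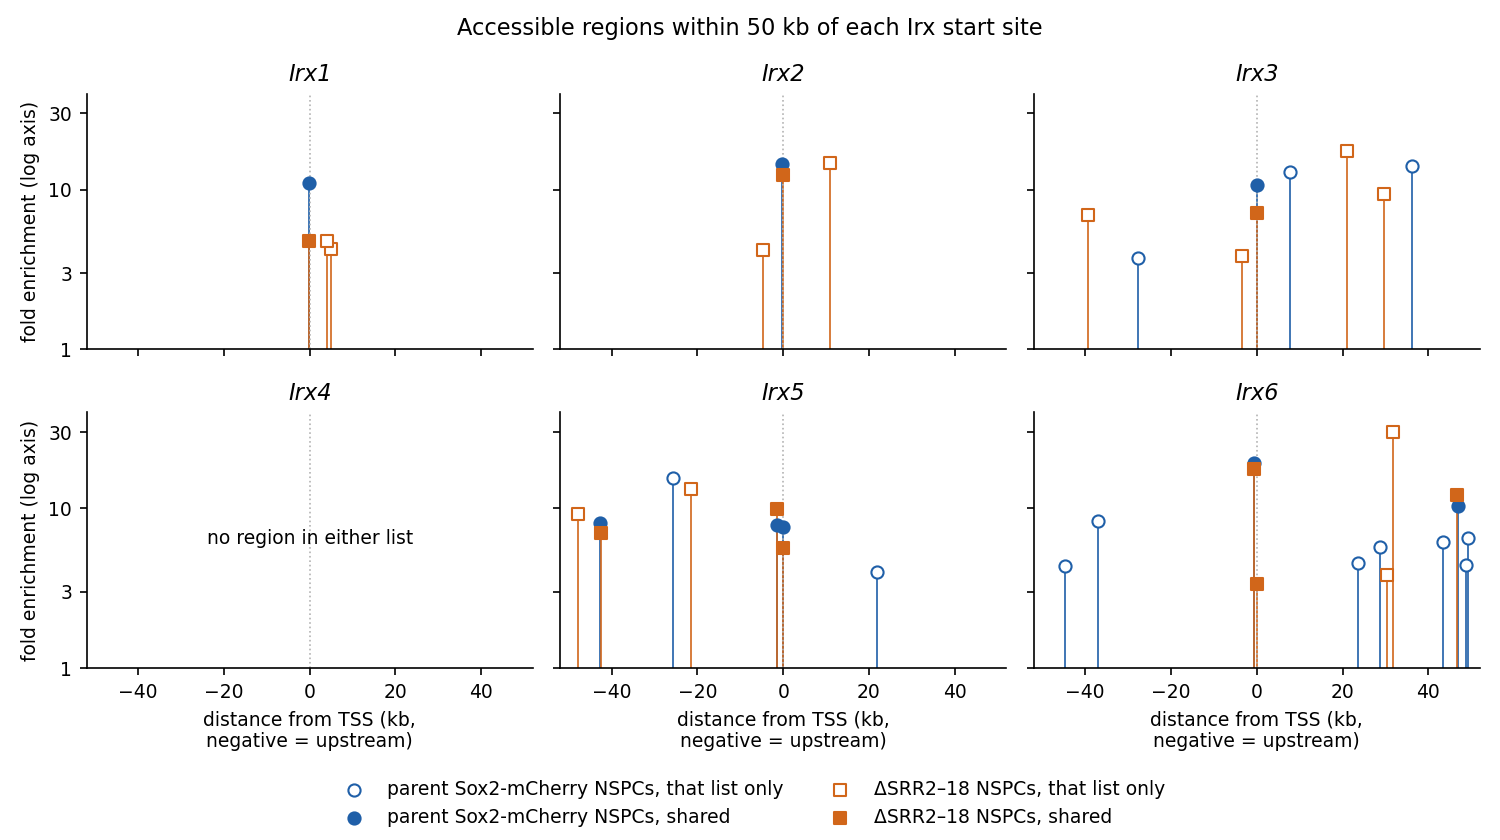
Fold enrichment (log axis) of each region against its distance from the TSS in kb, by *Irx* gene, with negative distances upstream. Blue circles are parent NSPCs and orange squares ΔSRR2–18 NSPCs; filled symbols overlap a region of the other list and open symbols do not. Regions at the TSS are filled, *Irx4* has no region, and the highest open symbol is the ΔSRR2–18 region 31.7 kb downstream of the *Irx6* TSS, at 30.3.

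A region was called shared when it overlapped a region of the other list by at least 1 bp. Of the 20 parent *Irx* regions, 12 had no ΔSRR2–18 region (60.0%), whereas 52.3% of all parent regions had none. Of the 21 ΔSRR2–18 *Irx* regions, 12 had no parent region (57.1%), beside 63.1% of all ΔSRR2–18 regions. Among regions that lay, like these, at most 50 kb from the nearest coding TSS, the shares were 45.0% (parent) and 53.0% (ΔSRR2–18). The parent *Irx* share was thus above both parent shares. The ΔSRR2–18 *Irx* share lay between 53.0% and 63.1% and near both. Within 1 kb of an *Irx* TSS, all 5 parent and all 6 ΔSRR2–18 regions were shared. Over all genes, 8.91% of parent and 14.0% of ΔSRR2–18 regions within 1 kb of a coding TSS were found in 1 genotype only. Beyond 1 kb, 12 of 15 parent regions and 12 of 15 ΔSRR2–18 regions were in that genotype only (80.0% each). Over all genes, 57.2% of parent regions and 64.5% of ΔSRR2–18 regions between 1 and 50 kb from the nearest coding TSS were found in 1 genotype only.

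At a common depth and a minimum −log10 p of 50, a setting chosen after the values were seen, 7 parent-only and 12 deletion-only *Irx* regions were left. In lists cut to equal numbers at their own depths there were 14 and 7 by fold enrichment and 13 and 9 by −log10 p. Which genotype had more regions of its own thus differed between these settings. The shares over all regions are not given at these settings, so the switch cannot be ascribed to the *Irx* regions in particular.

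At the limit of 50 kb, the parent-only regions were all in the chromosome 8 cluster. *Irx6* had 7 of them, *Irx3* 3 and *Irx5* 2, and *Irx1* and *Irx2* had 0. Among all protein-coding genes, also those without a region, 2.43% had at least as many parent-only regions as *Irx6*. Such a count depends on how near other genes start, and no other protein-coding gene starts within 50 kb of *Irx6*. The deletion-only regions were in both clusters, with 4 at *Irx3* and 2 each at *Irx1*, *Irx2*, *Irx5* and *Irx6*. None of the 24 overlapped a region of the other genotype's optimal list, a second and longer list made by the authors. The nearest region of the other genotype was 1064 to 35713 bp away from the parent-only regions and 1064 to 12644 bp away from the deletion-only regions.

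Promoter regions were present in both genotypes but stood lower in the ΔSRR2–18 list. Each region is described by its position among all regions of its own list, as the percentage of regions with a −log10 p at least as high, so that a small percentage is a strong region. The lists differ in length and depth, so a difference in position does not by itself show a change of the region. Summit reads of the parent were also divided by the depth ratio of 1.98. At the *Irx1* promoter, 141 bp upstream of the TSS, fold enrichment was 11.1 in parent and 4.80 in ΔSRR2–18 NSPCs. The summit held 2431 reads in the parent list (1230 at the ΔSRR2–18 depth) and 280 in the ΔSRR2–18 list. The region was at the top 19.7% of the parent list and the top 76.0% of the ΔSRR2–18 list. Pairing each promoter with the ΔSRR2–18 region of largest overlap, this was the widest gap in position among the *Irx* promoters, and its log2 ratio of depth-scaled reads was −2.14, with as low a value at 0.960% of all shared promoters. The region itself was nearly the same in extent, at 1676 and 1666 bp.

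*Irx2* had the strongest *Irx* promoter region of the parent list by −log10 p. Its fold enrichment was 14.4 in parent and 12.4 in ΔSRR2–18 NSPCs, and its position was the top 0.699% and the top 6.60%. Summit reads were 8036 (4067 at the ΔSRR2–18 depth) and 1857, a log2 ratio of −1.13. The *Irx3* promoter lies inside the antisense gene *Irx3os*, and ATAC-seq does not assign open DNA to a strand. Its region had a fold enrichment of 10.7 and 7.15, summit reads of 3886 (1967) and 1076 and a log2 ratio of −0.87, and was at the top 11.6% and the top 25.5%.

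*Irx5* had a pair of promoter-type regions that differed from each other. The region on the *Irx5* TSS had a fold enrichment of 7.62 in parent and 5.62 in ΔSRR2–18 NSPCs, and summit reads of 6601 (3341 at the ΔSRR2–18 depth) and 1380. It stood at the top 6.80% and the top 24.3%, with a log2 ratio of −1.28. The region 1.36 kb upstream lies beside the start of the non-coding gene *Crnde*. It had a fold enrichment of 7.87 and 9.88 and summit reads of 6809 (3446) and 2393. Its position was the top 6.05% and the top 5.12%, so that of the *Irx* regions present in both lists it alone stood higher in the ΔSRR2–18 list by −log10 p, although its depth-scaled reads were also lower, with a log2 ratio of −0.53.

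*Irx6* stood apart from the other promoters. Its region, with the summit 0.578 kb upstream of the TSS, had a fold enrichment of 19.4 in parent and 17.7 in ΔSRR2–18 NSPCs and was at the top 14.9% and the top 15.0%. Summit reads were 2336 (1182 at the ΔSRR2–18 depth) and 948, a log2 ratio of −0.32, above the median of −0.46 over the shared promoters. The same parent interval also overlapped a weak ΔSRR2–18 region with its summit in an *Irx6* UTR, with a fold enrichment of 3.37 and a −log10 p of 42.9. It held 181 summit reads and was at the top 96.0%, a log2 ratio of −2.71 to the parent summit 666 bp away.

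All 5 *Irx* promoters, those of *Irx1*, *Irx2*, *Irx3*, *Irx5* and *Irx6*, thus stood lower in the ΔSRR2–18 list by −log10 p, as did 63.5% of the 12602 shared promoters. By summit reads 4 of 5 stood lower. The *Irx6* difference was so small that it turned with the measure: by summit reads it was at the top 17.9% in the parent list and the top 16.8% in the ΔSRR2–18 list. The log2 ratio of depth-scaled reads ran from −1.37 to 0.88 between the 5th and 95th percentiles of the shared promoters, so *Irx2*, *Irx3*, *Irx5* and *Irx6* lay inside this range and *Irx1* below it. Farther out, the shared region 42.6 kb upstream of *Irx5* was at the top 70.9% and the top 85.1%, and the one 46.9 kb downstream of *Irx6* at the top 38.3% and the top 55.6%.

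**Figure D2:**
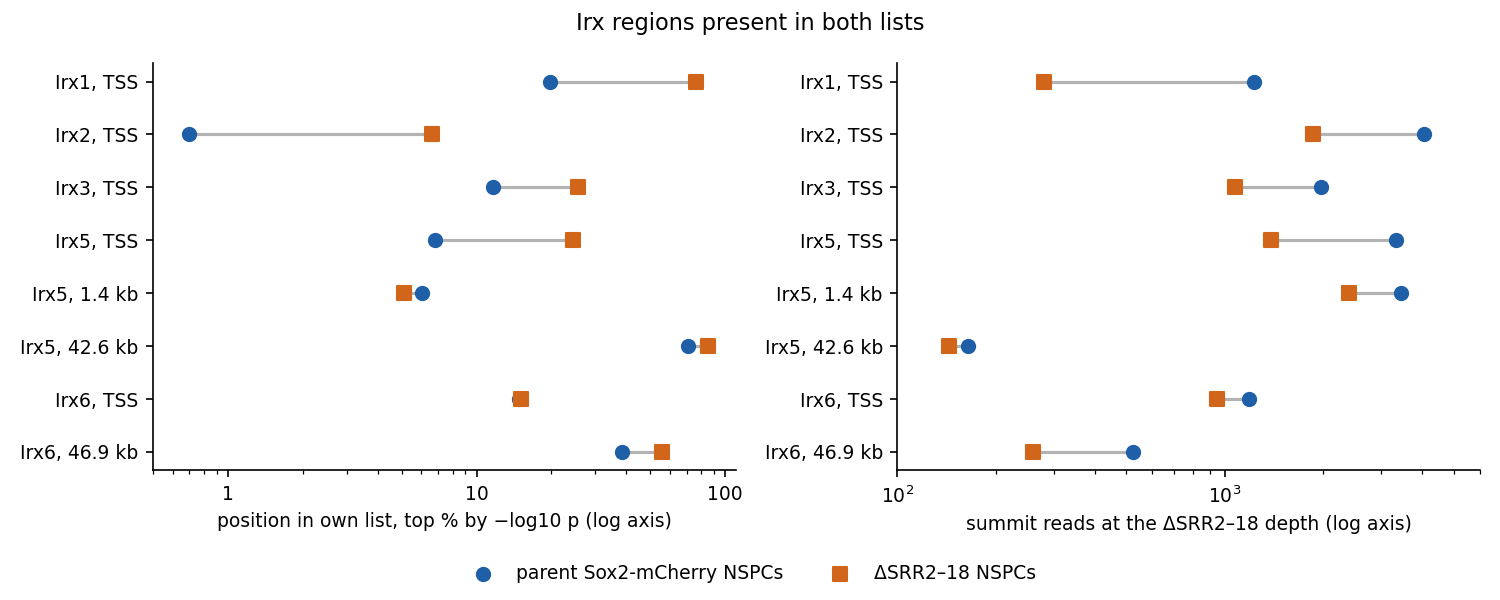
*Irx* regions present in both lists, with the position in the own list as the top percentage by −log10 p (left) and summit reads at the ΔSRR2–18 depth (right), both on log axes. Blue circles are parent and orange squares ΔSRR2–18 NSPCs, joined per region, without the second and weaker ΔSRR2–18 region at the *Irx6* TSS; TSS means within 1 kb, and the other labels give the distance. Of the pairs drawn, the *Irx1* promoter shows the longest line in reads, from 1230 to 280, and the *Irx6* promoter lies at the top 14.9% and 15.0%.

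Within 50 kb of an *Irx* TSS the chromosome 13 cluster had no parent-only region in the conservative lists, while *Irx1* had 1 with the optimal lists, in lists of equal number by fold enrichment, and at a −log10 p of at least 100 at common depth. The deletion-only counts of *Irx1* and *Irx2*, 2 each in the conservative lists, also changed. They were 0 and 1 in lists of equal number by fold enrichment and 1 each at an IDR score of at least 830. With the optimal lists they were 3 and 2, and with a TSS distance of 100 kb 4 and 6. The strongest deletion-only region of the cluster lay 11.0 kb downstream of the *Irx2* TSS (chr13:72639274-72640394, intergenic) with a fold enrichment of 14.8, a −log10 p of 383 and 490 summit reads. This region was at the top 29.3% of its list by fold enrichment and had no parent region within 9685 bp. The other 3 were weak by fold enrichment, though not all by reads. One lay 4.71 kb upstream of *Irx2* with a fold enrichment of 4.21 and 501 summit reads over a background of 118. Another lay in a coding exon of *Irx1* 4.11 kb downstream of the TSS, with 4.74 and 347 reads. The last was in an *Irx1* intron 5.00 kb downstream, with 4.26 and 265 reads.

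On chromosome 8, both genotypes had several regions of their own around *Irx3*. Parent-only regions lay 36.3 kb downstream of the TSS (chr8:91765162-91765975, intergenic, fold enrichment 14.0), 7.85 kb downstream (chr8:91793814-91794405, in an exon of the non-coding *Gm36380*, 12.8) and 27.7 kb upstream (3.74). The summit in *Gm36380* was within 1 kb of an annotated non-coding TSS. The deletion-only regions lay between and beyond them. These were 21.0 kb downstream (chr8:91780480-91781170, intergenic, 17.5), 29.8 kb downstream (9.34), 39.4 kb upstream (6.97) and 3.36 kb upstream in an exon of *Irx3os* (3.82). The *Irx3* +21.0 kb region, with 371 summit reads, was at the top 19.4% of its list by fold enrichment.

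Around *Irx5* a parent-only and a deletion-only region of similar strength lay 2654 bp apart inside *Crnde*. The parent-only region, 25.6 kb upstream of the *Irx5* TSS (chr8:92331694-92333030), had a fold enrichment of 15.4 and 613 summit reads and was at the top 24.9% by fold enrichment. The deletion-only region, 21.6 kb upstream (chr8:92335684-92336397), had 13.2 and 272 reads and was at the top 36.0%. The other parent-only region of *Irx5* was 22.0 kb downstream with a fold enrichment of 4.02, and the other deletion-only region was 47.8 kb upstream with 9.20.

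*Irx6* had more parent-only regions within 50 kb than any other *Irx* gene. These 7 lay at −44.7, −37.1, 23.6, 28.7, 43.4, 48.7 and 49.3 kb from the TSS. They were weak, with fold enrichments of 4.34 to 8.36, and 5 of them were downstream of the gene. The one at −44.7 kb was not in the parent optimal list. At a common depth 4 parent-only regions of *Irx6* were left with a −log10 p of at least 50 and 2 with at least 100, and none lay within 10 kb of the TSS. ΔSRR2–18 NSPCs had only 2 regions of their own there, and one of these was the strongest genotype-only region at any *Irx* gene. It lay 31.7 kb downstream (chr8:92706298-92706790, intergenic), with a fold enrichment of 30.3, a −log10 p of 1916 and 1791 summit reads. Ranked by fold enrichment it stood at the top 0.299% of the ΔSRR2–18 list, and ranked by −log10 p at the top 2.36%. The nearest parent region was 2413 bp away. The tandem repeat printed above lies under this summit. The other deletion-only region, 30.3 kb downstream, had a fold enrichment of 3.80.

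The genotype-only *Irx* regions had lower median values than such regions over the whole lists. Parent-only *Irx* regions had a median fold enrichment of 5.95 (3.74 to 15.4), beside 7.93 for all parent-only regions. Deletion-only *Irx* regions had a median of 8.08 (3.80 to 30.3), beside 9.58 for all deletion-only regions. Their median widths were 574.5 and 483.5 bp, and their median distances to the TSS 32.5 and 21.3 kb. By annotation, 10 of the 12 parent-only and 8 of the 12 deletion-only summits were intergenic.

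**Figure D3:**
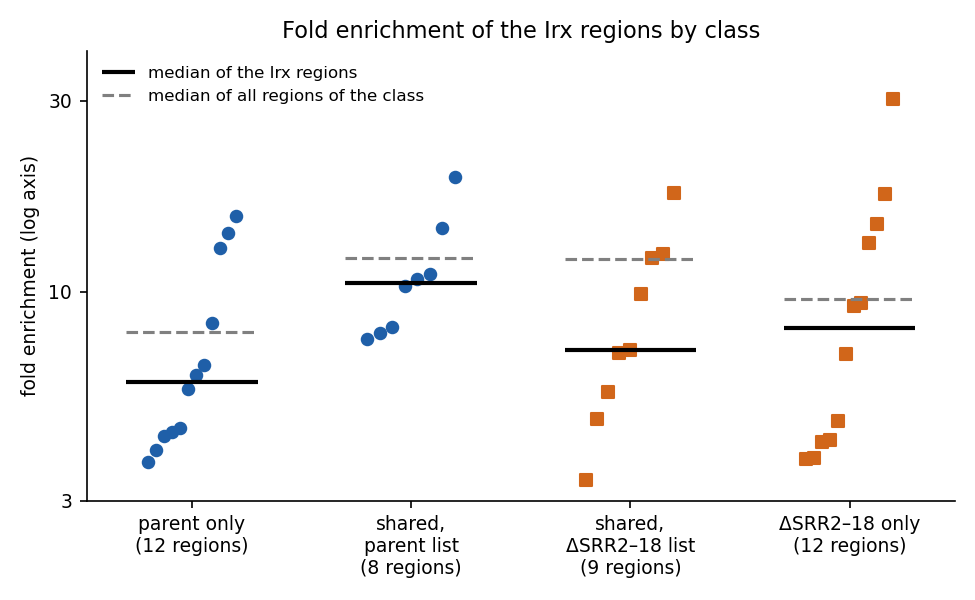
Fold enrichment (log axis) of each *Irx* region by class, with parent values as blue circles and ΔSRR2–18 values as orange squares. Black lines are medians of the *Irx* regions and dashed grey lines medians of all regions of the class. In each class the black line lies below the grey one, as with 5.95 against 7.93 for parent-only regions.

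The shared *Irx* regions had a higher median GC content than the genotype-only ones, with overlapping ranges. The sets differ in their share of promoters. Within 1 kb of the TSS lay 5 of the 8 parent and 6 of the 9 ΔSRR2–18 shared *Irx* regions, and no genotype-only one. Over all genes, 12602 of the 39500 shared parent regions did. In the 201 bp around the summit, median GC content was 68.2% (43.8 to 77.6) in the shared parent and 67.2% (45.3 to 79.6) in the shared ΔSRR2–18 regions, beside 54.7% and 54.2% over all shared regions. It was 52.7% (41.8 to 56.7) in parent-only and 49.8% (35.3 to 70.6) in deletion-only *Irx* regions, near the 50.2% and 45.8% of all such regions. The upper end of the deletion-only range came from the regions at *Irx1* and *Irx2* and the one 3.36 kb upstream of *Irx3*, which had 61.7% to 70.6% GC and 12 to 19 CpG. No *Irx* summit window was over 50% repeat-masked.

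Motifs were searched as exact letters on both strands within 100 bp of the strongest summit, and a match is a description of the sequence only. AP-1 is the site of Fos and Jun dimers (TGANTCA), and SOX that of Sox2 and its relatives (CATTGT). The AP-1 letters were in 6 of 12 deletion-only *Irx* regions (50.0%), beside 50.7% of all deletion-only regions. They were in 0 of 12 parent-only *Irx* regions, beside 4.59% of all parent-only regions. All 6 deletion-only regions with AP-1 letters were in the chromosome 8 cluster, at *Irx3* (3), *Irx5* (2) and *Irx6* (1). The 4 deletion-only regions on chromosome 13 held none. Of the 9 shared ΔSRR2–18 *Irx* regions, 1 also held them, 46.6 kb downstream of *Irx6*, beside 16.1% of all such regions. They were in 0 of the 8 shared parent *Irx* regions, beside 10.2%.

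The SOX letters were in 5 of 12 parent-only *Irx* regions (41.7%), beside 16.7% of all parent-only regions. They were in 1 of 12 deletion-only *Irx* regions, beside 12.0% of all deletion-only regions. Of the 5, 4 were at *Irx6*, at −37.1, 28.7, 48.7 and 49.3 kb, and 1 was the *Irx3* +36.3 kb region. Those at 48.7 and 49.3 kb are neighbouring intervals. Within 50 bp of the summit, 3 of the 12 parent-only regions held the SOX letters, and the share over all regions was not computed for that window. With 12 regions in a class, 1 region changes a share by 8.33 percentage points.

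The other motifs were less frequent. The palindrome bound by Iroquois proteins themselves (ACANNTGT) was in 3 of 12 parent-only (8.67% of all) and 2 of 12 deletion-only regions (8.82% of all). ZIC letters (CAGCAGG) were in 1 region of each class, beside 12.2% of all parent-only and 7.65% of all deletion-only regions. HOX-PBX letters (TGATTNAT), some of which hold an AP-1 match, were in 1 deletion-only region, beside 10.3% of all, and in 0 parent-only regions, beside 2.16%. CDX letters (TTTATTG) and the CTCF core were in 0 of the 24. Over all parent-only and deletion-only regions the shares were 2.28% and 3.99% for CDX and 1.36% and 0.270% for CTCF. These counts are too small to set the *Irx* regions apart. Of all 41 *Irx* regions 16 held at least 1 of the 7 motifs, beside 48.6% of all regions.

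**Figure D4:**
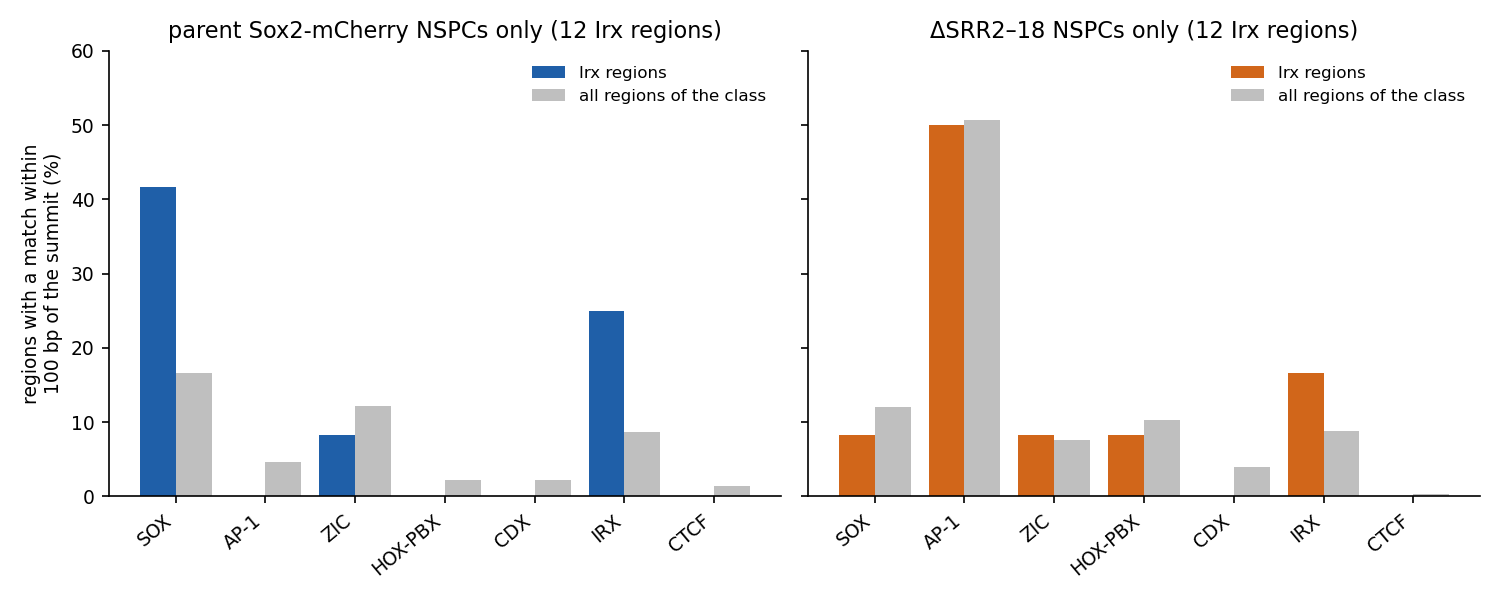
Percentage of regions with a motif match within 100 bp of the summit, for the 12 parent-only (left) and 12 deletion-only *Irx* regions (right, coloured bars) and for all regions of the class (grey bars). AP-1 is at 50.0% and 50.7% in the right panel and at 0 and 4.59% in the left one, where SOX is at 41.7% and 16.7%.

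The limit of 50 kb left out regions deeper in the gene deserts. The outermost parent region included was 49271 bp from *Irx6* (fold enrichment 6.55), and the first left out was 50581 bp from *Irx5* (6.83). In the ΔSRR2–18 list these were 47838 bp from *Irx5* (9.20) and 53173 bp from *Irx1* (23.3). Between the outer *Irx* genes of a cluster, with 50 kb added at each end, no other protein-coding gene starts. The chromosome 13 interval, 1397 kb long, held 19 parent and 30 ΔSRR2–18 regions in all, of which 12 and 23 were in that genotype only. The chromosome 8 interval, 973 kb long, held 40 and 40, of which 31 and 30 were in that genotype only. Over the whole lists these shares were the 52.3% and 63.1% given above. Those of the chromosome 13 interval came to 63.2% and 76.7% and those of the chromosome 8 interval to 77.5% and 75.0%. The whole lists are not a like comparison. Beyond 50 kb of an *Irx* TSS lay 17 of 19 and 24 of 30 regions on chromosome 13, and 22 of 40 and 25 of 40 on chromosome 8. At most 50 kb from a coding TSS, the shares over all genes were lower, at 45.0% and 53.0%, so regions farther out had higher ones. The share of such farther regions was not computed, so neither interval is read as raised.

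No gene could be singled out by having the same counts as an *Irx* gene, as 7 genes had the numbers of shared, parent-only and deletion-only regions of *Irx6*, 28 those of *Irx3*, 68 those of *Irx5* and 384 those of *Irx1* and *Irx2*. The other TALE homeodomain genes examined, 11 in number (*Meis1* to *Meis3*, *Pbx2* to *Pbx4*, *Tgif1*, *Tgif2*, *Pknox1*, *Pknox2* and *Mkx*), had 72 parent regions, of which 30 were parent-only (41.7%), and 77 ΔSRR2–18 regions, of which 31 were deletion-only (40.3%). Among them *Mkx* had 0 parent-only and 6 deletion-only regions. The 13 genes of neural borders examined (*Six3*, *Fezf1*, *Fezf2*, *Otx2*, *Gbx2*, *Fgf8*, *Olig2*, *Nkx2-2*, *Pax6*, *Dbx1*, *Dbx2*, *Shh* and *Tcf7l2*) had 54 parent-only of 79 regions (68.4%) and 42 deletion-only of 69 regions (60.9%). *Olig2*, the partner of Irx3 in the spinal cord, had 9 parent-only and 3 deletion-only regions. Over all 17643 genes with a region the shares were 45.0% and 53.0%. The *Irx* shares of 60.0% and 57.1% each lay between those of all genes and those of the border genes. The deletion-only *Irx* share, from 12 of 21 regions, was near both.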

How the data were processed

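ATAC-seq of NSPCs was performed by the authors on 3 cultures each of the parent and ΔSRR2–18 lines. Reads were processed with the ENCODE ATAC-seq pipeline, peaks were called with MACS2 and replicates were combined by IDR, in mm10; deepTools is also named in the submitters' processing notes. The aligner is not given in the sources used here. Reads of the Cast allele may map less often to mm10, and alleles were not separated. The deposited values of a peak are its IDR score, its fold enrichment (the ratio of summit to local background) and its −log10 p, all pooled over cultures. The deposited −log10 p grows with depth.

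The conservative lists were used. Peaks with the same interval were joined, with the values of the summit of highest fold enrichment. Reads at the summit and in the background were recovered from these values under the Poisson model of MACS2 and were whole within 0.05 for 100% of regions; they are pileup heights. The ratio of lowest backgrounds (1.98) set the relative depth, which assumes that both lists have their floor at the genome mean. TSS were from GENCODE M21 basic and sequence from GRCm38.p6. Python 3.11.15, numpy 2.4.6 and pandas 2.3.3 were used, and the functions were tested on simulated data. No differential test was possible with pooled lists.

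Named regions were those within 1 kb of an *Irx* TSS, the 3 parent-only and 3 deletion-only regions of highest fold enrichment per cluster, and the shared regions of largest rank change; the rest were named to account for all members. Genes with the same counts were to be named where there were 3 or fewer. The genes, lists, motifs and naming rule were chosen with earlier results of these data known. The 8 NSPC and 2 pluripotency genes were chosen after the lists were seen. A gene of the lists and a motif are not reported here.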

Additional observations from a re-analysis of the deposited data

Results flagged for a closer look

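*Irx4* had no region in either conservative list, but the optimal list of ΔSRR2–18 NSPCs, which was not used for the counts, held 2 regions near it where the parent optimal list held 0. One had its summit in the *Irx4* UTR, 0.312 kb from the TSS, with a fold enrichment of 4.07 and 83 summit reads, and the other lay 11.5 kb downstream with a fold enrichment of 4.50 and 92 summit reads. Both were weak, at the top 99.2% and the top 97.3% of that list by −log10 p, and the difference between the genotypes was not tested.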

How the results depend on the processing

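No paired analysis was possible because the lists are pooled over cultures and hold no value per culture, and for the same reason no culture could be left out. The main counts were 20 parent and 21 ΔSRR2–18 *Irx* regions, with 12 parent-only and 12 deletion-only. With a TSS distance of 10 kb they were 7, 11, 1 and 4. With 100 kb the ΔSRR2–18 and deletion-only counts were 36 and 26. With lists cut to equal numbers by fold enrichment these were 13 and 7. With a −log10 p of at least 50 at a common depth, an alternative chosen after seeing the data, 7 parent-only regions were left. With a −log10 p of at least 100, there were 12 parent and 6 parent-only regions. Shares over all regions are not given for these alternatives. The other alternatives (optimal lists, an IDR score of at least 830, merged intervals, equal numbers by −log10 p, 50% reciprocal overlap, summit inside the other region, absence from the optimal list) left each of these counts within 1.5 times of the main one. The promoter count of 5 lower in ΔSRR2–18 was 5 by fold enrichment, 4 by reads and 4 in the optimal lists. The 16 regions with a motif were 11 with a 50 bp window and 16 outside promoters. Depth per culture was not recovered.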
